A study of Mus musculus with 186 samples.

Results

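The 10 genes described here encode proteins of the matricellular and interstitial matrix and were followed through single basal and luminal cells of the adult mouse mammary gland: Sparc, Thbs1, Thbs2, Tnc, Postn, Fbln1, Fbln2, Fn1, Dcn and Col3a1. The list was drawn up with results of these data known, to ask which of the 10 were made by most basal cells and which were confined to a few cells of either population. All 10 were found among the 25275 genes with a symbol. All 10 were also among the 14773 genes that reached 1 CPM (a gene's reads scaled to the total of the cell) in at least 3 cells, a filter that a gene can pass through either population.

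The cells were epithelial cells of adult FVB/NJ mice, untreated, and were captured singly on the Fluidigm C1, a microfluidic chip on which full-length cDNA is made at each capture site. Both populations had been freed of cells that carry markers of endothelium and blood (Ter119, CD31, CD45). The 96 basal cells were taken from the CD29hi CD24+ gate and lay on PCR plates A and B. The 90 luminal cells were taken from the CD29lo CD24+ gate and lay on plates B and C. The labels tie no cell to a mouse, so each population is 1 sample, cells are not replicates, and no difference below has a test or a replicate check.

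Deposited reads per cell ranged from 3105 to 3784407. After thresholds on depth, 72 basal cells (50 from plate A, 22 from B) and 76 luminal cells (24 from B, 52 from C) remained, with 69933 to 3226961 reads each once mitochondrial and ribosomal protein genes were set aside. The 12 basal epithelial markers, among them Krt14 and Acta2, were all higher in basal cells, and the 12 luminal markers, among them Krt18 and Prlr, were all higher in luminal cells. No cell had more than 1 of 15 immune markers. Some cells carried markers of cell types outside their gate, and some had few or none of its own. At 50000 reads, 1 basal cell and 6 luminal cells had at least 10 of 20 fibroblast markers, and 6 basal and 4 luminal cells had at least 7 of 20 endothelial markers, with luminal cell 55 in both sets. These 16 cells are called marker cells below, and the limits were set after the marker counts were seen. For the 10 genes, the main levels, ratios and detection shares that rest on them are given with and without them. Related matrix genes are given with them only. Luminal cell 63 had 11 of the 12 basal markers beside 9 of the 12 luminal ones. Basal cell 90 had 0 of the 12 basal and 8 of the 12 luminal markers and none of the 10 genes at 50000 reads, and it is counted as basal throughout, by its label.

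The marker lists hold none of the 10 genes. The fibroblast list does hold genes found in many basal cells. At 50000 reads Col14a1 was detected in 63.9%, Serpinf1 in 37.5% and Gsn in 36.1% of basal cells, but Dpt in 2.78%. Basal cells outside the marker cells had up to 5 of the 20 fibroblast markers. The 6 luminal cells with fibroblast markers had 19 of the 20 between them at 50000 reads (Twist2 was not detected), with a summed level of 7132 to 33720.1 CPM per cell, against at most 1615 CPM in luminal cells outside the marker cells. Basal cell 56 had 14 of the 20, at 18065 CPM, against at most 2574 CPM in other basal cells, and lacked Pi16, Twist2, Fap, Thy1, Col15a1 and Fbn1. Markers of their own gate were also found, 4 to 11 of 12 luminal markers in the 6 luminal cells and 9 of 12 basal markers in basal cell 56. In luminal cell 54 these were low, with a luminal sum of 466 CPM, against at least 3489 CPM in luminal cells outside the marker cells. The 6 basal cells with endothelial markers had 17 of the 20 between them (not Tie1, Cldn5 or Erg), at 3684 to 15937 CPM, and the 4 luminal ones had all 20, at 2274 to 8403 CPM. Of their own gate, the 6 basal cells had 3 to 11 of 12 basal markers and the 4 luminal cells 9 to 11 of 12 luminal ones. Basal cells 72 and 82 had the fewest, 4 and 3, with basal sums of 291 and 37.4 CPM. Outside the marker cells the endothelial sum reached 1076 CPM in the basal population, and its highest luminal value was 396 CPM.

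Matricellular proteins are secreted into the matrix, where they act on cell adhesion, growth factor activity and matrix assembly rather than as load-bearing fibres. Interstitial matrix proteins such as fibrillar collagens, fibronectin and small proteoglycans build the connective tissue around the epithelium and are classically products of fibroblasts. In the mammary gland, basal cells are the contractile outer layer of the ducts and rest on the basement membrane, so they lie next to this stroma, whereas luminal cells line the inside.

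Detection was compared at equal depth. Each cell was thinned at random to 50000 reads, and a gene was called detected with at least 1 read. Shares of cells carry exact 95% Clopper-Pearson intervals. These cover error in counting cells only, with cells taken as independent draws, and leave out differences between mice and between plates. The libraries have no molecular identifiers. For a count of 0 the limit given is instead 3 cells of the total.

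In most basal cells, 5 of the genes were detected. Sparc was found in 67 of 72 basal cells (93.1%, 84.5 to 97.7), Thbs1 in 67 (93.1%, 84.5 to 97.7), Fbln2 in 58 (80.6%, 69.5 to 88.9), Postn in 54 (75.0%, 63.4 to 84.5) and Dcn in 37 (51.4%, 39.3 to 63.4). Over all 14773 genes, 9.24% were detected in over 50% of basal cells. The limit of 50% fell between Dcn at 51.4% and Fbln1 at 36.1%, and the interval of Dcn held 50%. Dcn was the gene that did not hold its place. It was in 45.8% of basal cells in another random thinning, 45.0% with mitochondrial and ribosomal protein genes kept and 41.7% with 5 reads required. Its share was 50.0% under a stricter cell filter, 43.1% without cells with at least 4 fibroblast markers and 27.3% on plate B. Each of these settings left 4 genes in over 50%. The limit of 4 fibroblast markers also removed basal cells outside the marker cells, which had up to 5. At the other end, Col3a1 (5.56%), Tnc (4.17%) and Thbs2 (2.78%) were each detected in at most 10% of basal cells, as were 53.9% of all genes, with Fn1 just outside at 12.5%. In luminal cells none of the 10 genes reached 50% at 50000 reads. Both statements depend on depth. At full depth Thbs1 was found in 78.9% and Dcn in 71.1% of luminal cells, and Fbln1 in 56.9% of basal cells. Tnc, Postn and Fbln1 were detected in at most 10% of luminal cells, against 43.2% of all genes, and Fn1 and Col3a1 lay just outside at 10.5%. Because the list was chosen on these patterns, the shares of all genes are given as background only.

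**Figure D1:**
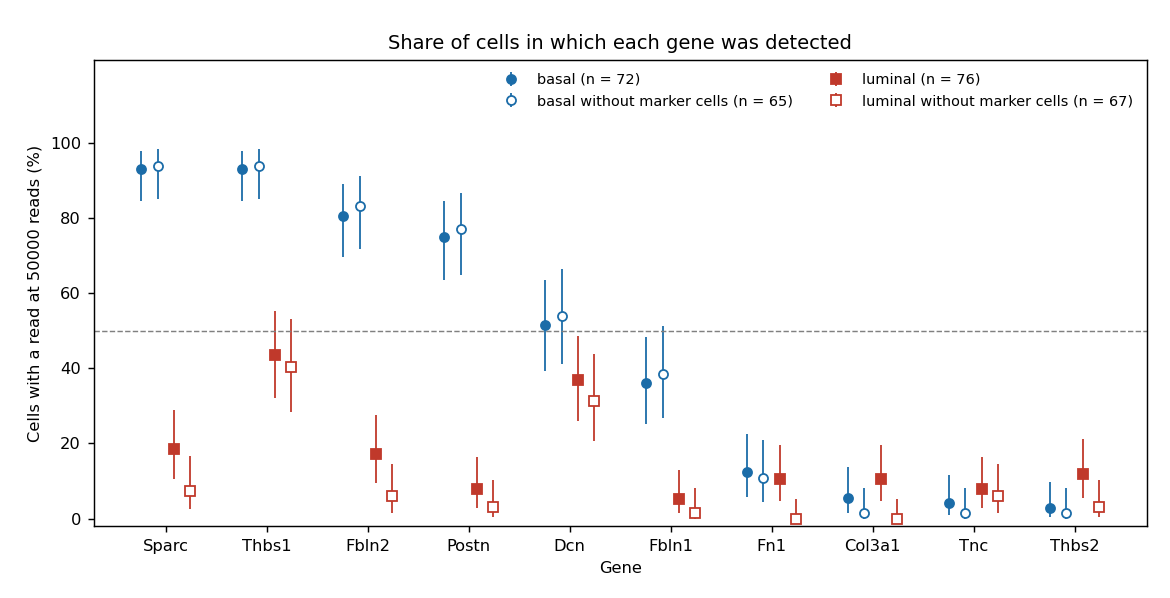
Share of cells (%) with at least 1 read of each gene at 50000 reads per cell, with exact 95% intervals, in basal (circles) and luminal (squares) cells; open symbols leave out the cells with fibroblast or endothelial markers and the dashed line marks 50%. Sparc and Thbs1 stood at 93.1% of basal cells and Col3a1, Tnc and Thbs2 under 6%, and without the marker cells no luminal cell had Fn1 or Col3a1.

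A typical basal cell carried several of these transcripts at once. The median was 5 of the 10 genes per basal cell and 1 per luminal cell. At least 4 genes were detected in 58 of 72 basal cells (80.6%, 69.5 to 88.9) and in 11 of 76 luminal cells (14.5%, 7.45 to 24.4). No cell of either population had more than 8. Of the 11 luminal cells, 9 were marker cells, and without marker cells the share was 2 of 67 (2.99%, 0.364 to 10.4) in luminal and 53 of 65 (81.5%, 70.0 to 90.1) in basal cells. The plates differed within the basal population: 46 of 50 plate A cells (92.0%) but 12 of 22 plate B cells (54.5%) had at least 4 genes. Basal cells of plate B also had fewer genes in all (a median of 3317 against 5164 on plate A) and held all 6 basal cells with endothelial markers, and the part of these in the difference was not tested.

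**Figure D2:**
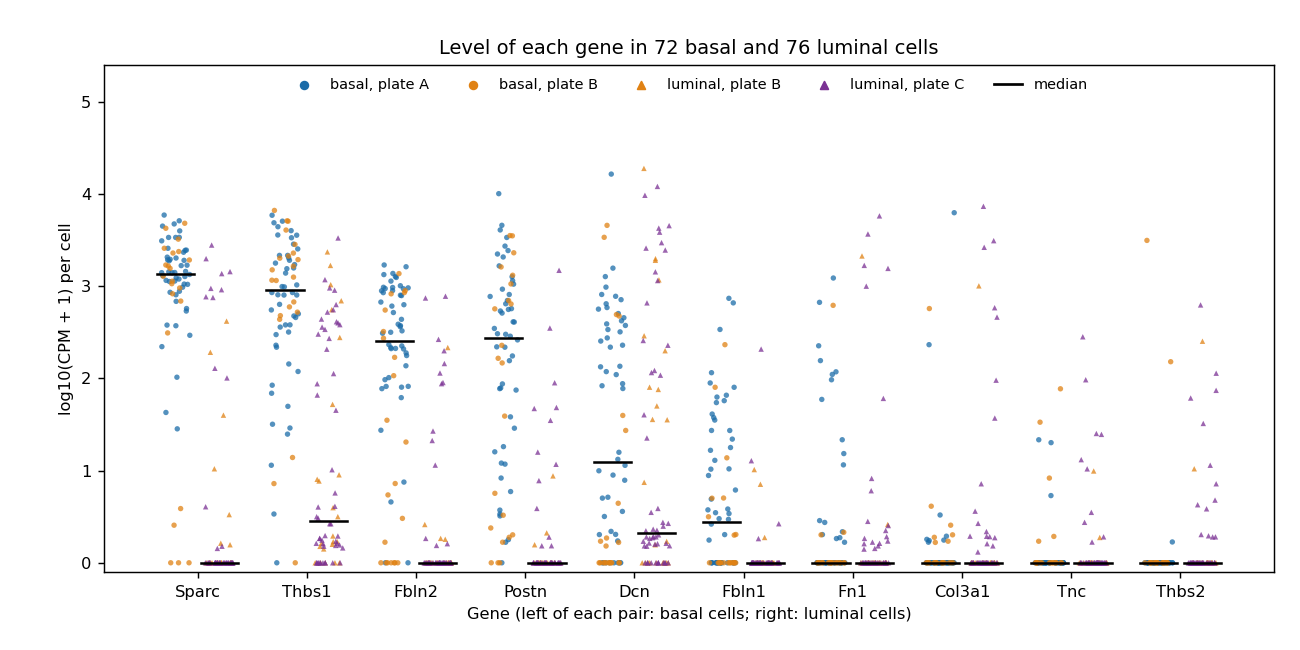
Level of each gene in every cell that passed the thresholds, as log10(CPM + 1), with basal cells (circles) to the left and luminal cells (triangles) to the right of each pair, coloured by plate, and the median as a line. Sparc, Thbs1, Fbln2 and Postn fill a continuous range over most basal cells, whereas Fn1, Col3a1, Tnc and Thbs2 lie at 0 in most cells of both populations with a few cells far above.

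Sparc (chromosome 11, 55394159 to 55420080, GRCm38.p6) encodes osteonectin, a matricellular glycoprotein that binds collagen and calcium. It had the highest level of the 10 per length in basal cells, at 745 RPKM (CPM divided by the length of the gene in kilobases) over the summed cells. Its CPM per basal cell ran from 0 over a median of 1371 to 5917, with the middle 50% of cells between 823 and 2302. In luminal cells it ran from 0 over a median of 0 to 2796. The bulk of the basal cells thus lay above the bulk of the luminal cells, with overlap at both ends. Sparc was detected in 14 of 76 luminal cells (18.4%, 10.4 to 29.0). Over summed reads it stood at 1713 CPM in the basal and 156 CPM in the luminal population, a log2 ratio of luminal over basal of -3.44 with 1 CPM added to each.

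The Sparc reads of the luminal population came from few cells. The 9 luminal marker cells held 91.2% of them and 13.1% of all luminal reads, and every one of these 9 cells had Sparc. Without marker cells Sparc was detected in 5 of 67 luminal cells (7.46%) at 15.9 CPM and in 61 of 65 basal cells (93.8%) at 1671 CPM, and the log2 ratio was -6.63. Luminal cell 63, with its basal markers, held 58.6% of the reads that were left. On plate B alone, the plate that held both populations, the ratio was -5.20. The part of fibroblast and endothelial RNA in the luminal value was not tested beyond these counts.

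Thbs1 (chromosome 2, 118111876 to 118127133) encodes thrombospondin 1, a trimeric matricellular protein that binds CD36, CD47 and integrins and activates latent TGF-beta. Per basal cell it ran from 0 over a median of 918 to 6643 CPM, with the middle 50% between 349 and 2133. Per luminal cell it ran from 0 over a median of 1.85 to 3338 CPM. Thbs1 was found in 33 of 76 luminal cells (43.4%, 32.1 to 55.3), ahead of Dcn in 28 (36.8%), but Dcn led in another random thinning (39.5 against 38.2%), with mitochondrial and ribosomal protein genes kept (40.3 against 36.4%) and on plate B (41.7 against 33.3%). Of the 76 luminal cells, 23 had at least 100 CPM, a range in which they overlapped the basal cells. Summed over cells, Thbs1 stood at 1542 CPM (basal) and 196 CPM (luminal), a log2 ratio of -2.97.

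Unlike Sparc, luminal Thbs1 did not sit in the marker cells. These held 3.75% of its luminal reads, and the 6 luminal cells with fibroblast markers had 1.34 CPM together, the highest of them 2.96. Without marker cells the luminal level was 217 CPM in 27 of 67 cells (40.3%), and the log2 ratio was -2.89. Its luminal reads were also the least concentrated of the 10, with 36.7% in 3 cells. The ratio was -3.43 on plate B and -2.71 for plate A against plate C.

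Markers of the hormone-sensing luminal cells were compared between luminal cells with and without Thbs1, and the markers were picked after their values had been seen. Pgr, the progesterone receptor, was detected in 16 of 33 luminal cells with Thbs1 and in 28 of 43 without, at 61.0 and 192 CPM. Cited1, a transcriptional co-regulator of these cells, was detected in 23 of 33 and 38 of 43, at 487 and 1204 CPM. Ly6d, a surface protein, stood at 277 and 851 CPM. Esr1, the oestrogen receptor, stood at 102 and 99.3 CPM and Foxa1, a transcription factor, at 219 and 214 CPM. Outside the marker cells, the levels with and without Thbs1 were 73.2 and 204 CPM for Pgr, 593 and 1219.5 CPM for Cited1, 294 and 801 CPM for Ly6d, 127 and 105 CPM for Esr1 and 272 and 219.8 CPM for Foxa1. In level, the first 3 markers were lower in the cells with Thbs1 in either set of cells, and the other 2 were not. Prlr and Areg, also on the luminal list, were lower in both sets too. In all luminal cells they stood at 2868 and 5655 CPM (Prlr) and at 499 and 899 CPM (Areg) with and without Thbs1. Of the rest of that list, Krt18, Krt19, Epcam and Elf5 were lower with Thbs1 in both sets, and Krt8 was higher. By detection Esr1 was lower too, in 15 of 33 cells with Thbs1 and 27 of 43 without (45.5 and 62.8%). Outside the marker cells its shares were 51.9 and 62.5%. Foxa1 was detected in 54.5 and 55.8% of all luminal cells with and without Thbs1.

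Postn (chromosome 3, 54359267 to 54391041) encodes periostin, a matricellular protein that binds integrins and takes part in collagen assembly. Its values per basal cell spread over a wide range, from 0 over a median of 273 to 10098.4 CPM, with the middle 50% between 11.0 and 960. Basal cell 24 alone held 18.1% of the basal reads. Per luminal cell the median was 0 and the highest 1488 CPM. The summed levels were 914 CPM (basal) and 28.9 CPM (luminal), and the log2 ratio of -4.94 was the lowest of the 10. Luminal cell 25, with 17 endothelial markers and 6 of 12 pericyte markers, held 76.4% of the luminal reads. Without marker cells the ratio was -7.18. Only 6 luminal cells had Postn at 50000 reads (7.89%), 2 of 67 without marker cells. None of the 24 luminal cells of plate B had it at this depth, a limit of 12.5% of cells.

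Fbln2 (chromosome 6, 91212460 to 91272540) encodes fibulin 2, a glycoprotein that links fibronectin, elastic fibres and basement membrane proteins. It ran from 0 over a median of 252 to 1700 CPM per basal cell and from 0 over a median of 0 to 778 CPM per luminal cell. No basal cell stood apart: cell 30 had the highest CPM, and cell 81, with the most reads, held 5.65% of the basal reads. The summed levels were 455 and 36.4 CPM, a log2 ratio of -3.61. Of 13 luminal cells with Fbln2 (17.1%), 9 were marker cells, which held 79.0% of the reads. All 9 had it. Without them the level was 8.78 CPM in 4 of 67 cells and the ratio was -5.58.

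The basal genes above differed between the 2 basal plates to unequal extents. Sparc was detected in 50 of 50 cells of plate A and 17 of 22 of plate B, and Fbln2 in 46 of 50 and 12 of 22. Postn was found in 40 of 50 and 14 of 22 cells. Thbs1 showed the smallest gap, with 47 of 50 and 20 of 22 cells, and its summed level was the higher on plate B, at 1934 against 1347 CPM. Summed levels on plates A and B were 1768 and 1603 CPM for Sparc, 978 and 785 CPM for Postn and 557 and 250 CPM for Fbln2. Plate and cell quality cannot be told apart from each other here, as plate B basal cells also had fewer genes.

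Promoter sequences are shown for Sparc, Postn and Fbln2, which were detected in most basal cells, and for Col3a1, which was confined to a few, so that the members of the contrast can be read side by side. They are the 250 bases before a RefSeq start site on GRCm38.p6, written 5′ to 3′ on the gene's strand. Entries were found for 7 of the 10 genes. Fn1, Thbs1 and Dcn had none. Capitals mark matches, on either strand, to the TATA box (TATAAA), the CCAAT box, the GC box (GGGCGG), the TEAD site (CATTCC), the AP-1 site (TGANTCA) and the E box CAGCTG, and no match overlaps another in these windows. The Sparc window is chr11:55420081-55420330 on the minus strand, that of Postn is chr3:54360857-54361106 on the plus strand (the second of its 2 start sites), that of Fbln2 is chr6:91212514-91212763 on the plus strand and that of Col3a1 is chr1:45311288-45311537 on the plus strand.
Sparc: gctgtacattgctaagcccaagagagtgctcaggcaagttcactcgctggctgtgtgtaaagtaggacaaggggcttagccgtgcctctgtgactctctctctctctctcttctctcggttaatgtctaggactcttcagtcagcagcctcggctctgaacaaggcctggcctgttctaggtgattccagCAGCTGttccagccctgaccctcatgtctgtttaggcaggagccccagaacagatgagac
Postn: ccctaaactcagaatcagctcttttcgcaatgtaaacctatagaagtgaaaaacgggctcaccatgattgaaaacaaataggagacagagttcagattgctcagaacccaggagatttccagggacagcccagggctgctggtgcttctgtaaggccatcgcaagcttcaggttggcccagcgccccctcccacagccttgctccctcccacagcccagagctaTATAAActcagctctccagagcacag
Fbln2: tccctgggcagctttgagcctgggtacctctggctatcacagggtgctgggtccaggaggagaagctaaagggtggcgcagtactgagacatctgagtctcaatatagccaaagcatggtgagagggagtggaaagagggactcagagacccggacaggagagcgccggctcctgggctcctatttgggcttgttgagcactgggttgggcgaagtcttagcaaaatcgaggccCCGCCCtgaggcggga
Col3a1: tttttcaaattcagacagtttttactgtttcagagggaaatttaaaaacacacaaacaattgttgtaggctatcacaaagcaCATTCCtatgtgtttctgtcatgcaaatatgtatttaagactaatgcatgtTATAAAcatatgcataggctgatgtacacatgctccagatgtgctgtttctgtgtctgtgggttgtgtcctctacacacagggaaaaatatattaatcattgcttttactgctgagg
The Sparc window held CAGCTG, starting 60 bases before the start site, a motif in 12.8% of 27025 windows of the same length. The window of the first Postn start site, chr3:54359017-54359266, held none of these motifs. The Postn window shown held TATAAA at 26 bases and the Col3a1 window held it at 117 bases, against 13.0% of all windows. The Fbln2 window held GGGCGG on the opposite strand at 16 bases (32.9% of all windows), and the Col3a1 window held CATTCC at 168 bases (12.6%). TGANTCA, in 6.87% of all windows, was in none of the 4. No motif was common to the windows shown for the 3 basal genes.

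Dcn (chromosome 10, 97479500 to 97518163) encodes decorin, a small leucine-rich proteoglycan that binds collagen fibrils. It was the most uneven of the genes detected in most basal cells. Per basal cell it ran from 0 over a median of 11.3 to 16466 CPM, and per luminal cell from 0 over a median of 1.12 to 18980.5 CPM, so the populations overlapped over the whole range. The summed levels were 585 CPM (basal) and 932 CPM (luminal), a log2 ratio of 0.67, just under the limit of 1. Per length, Dcn was the highest of the 10 in luminal cells, at 447 RPKM. Basal cell 56, with 14 fibroblast markers, held 49.1% of the basal reads, and without this cell the basal level was 303 CPM and the ratio 1.62.

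Dcn was not limited to cells with fibroblast markers. All 6 luminal cells with such markers had it, at 1910 to 12099.6 CPM, and they held 61.8% of its luminal reads. Beside them, 21 of 67 luminal cells outside the marker cells had Dcn (31.3%, 20.6 to 43.8), 8 of them at 1000 CPM or more. The highest Dcn level of any cell, 18980.5 CPM, was in luminal cell 13 of plate B. This rank depends on the reads kept, as only 624693 of the 2811486 deposited reads of that cell were kept. Its 11857 Dcn reads were fewer than the 24140 of basal cell 56. Luminal cell 13 had 0 of 20 fibroblast markers and 9 of 12 luminal ones. Luminal cell 89, at 2590 CPM, also had 0 fibroblast and 7 luminal markers. Among basal cells outside the marker cells, Dcn was detected in 35 of 65 (53.8%). The log2 ratio without marker cells was 0.32.

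Luminal markers were also compared between cells with and without Dcn, in luminal cells outside the marker cells. Prlr, the prolactin receptor, was detected in 21 of 21 cells with Dcn and in 44 of 46 without, at 5646 and 4644 CPM. Pgr was detected in 16 of 21 and 25 of 46, at 153 and 159 CPM. In level, Foxa1 was lower in the cells with Dcn, at 139.6 against 283 CPM. Elf5, a factor of luminal progenitors, was also lower in level, at 29.7 against 63.4 CPM. Neither was lower by detection. Foxa1 was detected in 13 of 21 and 24 of 46 cells (61.9 and 52.2%), and Elf5 in 5 of 21 and 8 of 46 (23.8 and 17.4%). Of the luminal markers not yet named here, Krt8, Krt18, Epcam, Cited1 and Esr1 were lower in level with Dcn. Krt19, Areg and Ly6d were higher. By detection, Areg (90.5 and 73.9%), Cited1 (90.5 and 78.3%) and Ly6d (76.2 and 60.9%) were higher with Dcn, and none of the list was lower. With marker cells included, Dcn and Thbs1 were detected together in 11 of 76 luminal cells. This was 39.3% of the cells with Dcn, against Thbs1 in 43.4% of all luminal cells. It was 33.3% of the cells with Thbs1, against Dcn in 36.8% of all luminal cells. Outside the marker cells 7 of 67 luminal cells had both. The overlap was thus no larger than the shares over all cells.

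Fbln1 (chromosome 15, 85205949 to 85286294) encodes fibulin 1, a matrix glycoprotein that binds fibronectin and elastic fibres. It took a middle place, in 26 of 72 basal cells (36.1%, 25.1 to 48.3) and 4 of 76 luminal cells (5.26%). Per basal cell it ran from 0 over a median of 1.79 to 738 CPM, and the highest luminal cell had 207 CPM. The summed levels were 39.9 and 3.69 CPM, a log2 ratio of -3.12. Basal cells 56, 3 and 44 held 61.4% of the basal reads. Luminal cell 33, with 14 fibroblast markers, held 85.5% of the luminal reads. Without marker cells 25 of 65 basal cells and 1 of 67 luminal cells had Fbln1, and the ratio was -4.85. Plate A had 23 of 50 basal cells with Fbln1 and plate B 3 of 22.

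Fn1 (chromosome 1, 71585473 to 71653280) encodes fibronectin, which is assembled into fibrils by cells through integrins. It was detected in 9 of 72 basal cells (12.5%, 5.88 to 22.4) and 8 of 76 luminal cells (10.5%, 4.66 to 19.7). Summed levels were 48.1 CPM (basal) and 256 CPM (luminal), a log2 ratio of 2.39. That direction rested on the marker cells. The 6 luminal cells with fibroblast markers had 1001 to 5798 CPM and held 99.5% of the luminal reads. Without marker cells Fn1 was detected in 0 of 67 luminal cells (a limit of 4.48%) and in 7 of 65 basal cells (10.8%), and the ratio was -4.77. At full depth 13 of these 67 luminal cells had Fn1 reads, none more than 1.81 CPM.

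Basal Fn1 was found outside the marker cells. Basal cell 16 had the highest basal level, at 1227 CPM, with 3 fibroblast and 11 of 12 basal markers. Basal cells 25, 26, 11, 12 and 21 followed among the cells outside the marker set, at 225, 155, 117, 109.5 and 95.7 CPM, with 10 to 12 basal markers each. Together with basal cell 56 (668 CPM) and basal cell 80, which had 13 endothelial markers (619 CPM), these cells held nearly all basal Fn1, since 6 cells held 90% of the reads. All 9 basal cells with Fn1 at 50000 reads also had Sparc and Thbs1, but each of these 2 genes was in 93.1% of all basal cells.

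Col3a1 (chromosome 1, 45311538 to 45349706) encodes the chain of type III collagen, a fibrillar collagen of connective tissue. It was detected in 4 of 72 basal cells (5.56%, 1.53 to 13.6) and 8 of 76 luminal cells (10.5%, 4.66 to 19.7), at summed levels of 123 and 251 CPM and a log2 ratio of 1.03. Basal cell 56 alone, at 6273 CPM, held 89.1% of the basal reads, and without it the ratio was 4.12. Luminal cell 54 held 45.7% of the luminal reads, and without it the ratio was 0.17, under the limit of 1. Without both it was 3.26. The 6 luminal cells with fibroblast markers, at 461 to 7362 CPM, held 99.5% of the luminal reads. Most other cells with any read had very few, as 12 of the 15 basal and 11 of the 19 luminal cells with Col3a1 at full depth had 1 to 4 reads. Without marker cells it was detected in 1 of 65 basal cells and in 0 of 67 luminal cells (a limit of 4.48%), and the ratio was -2.01. The basal cell left was cell 13, at 231 CPM, with 5 fibroblast, 10 basal and 9 luminal markers. Without this cell too, the levels were 0.146 CPM (basal) and 0.131 CPM (luminal), so no direction is given for Col3a1 outside the marker cells.

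**Figure D3:**
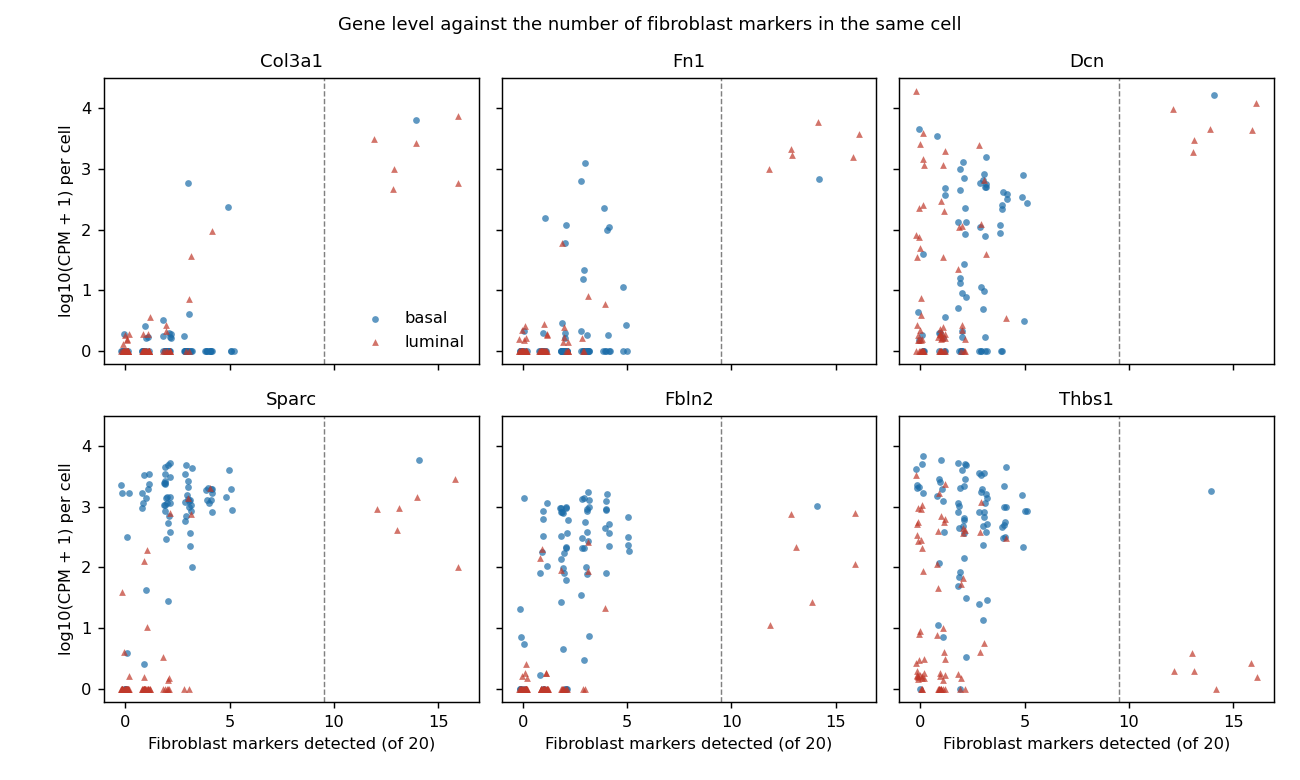
Level of 6 of the genes, as log10(CPM + 1), against the number of 20 fibroblast markers detected in the same cell at 50000 reads, for basal (circles) and luminal (triangles) cells; points are spread slightly along the x axis and the dashed line marks the limit of 10 markers. The 7 cells to the right of it all had Col3a1, Fn1, Dcn, Sparc and Fbln2, whereas Thbs1 was at most 2.96 CPM in the 6 luminal ones, and no cell had 6 to 11 markers.

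Tnc (chromosome 4, 63959785 to 64047015) encodes tenascin C, a hexameric matricellular protein that modulates adhesion to fibronectin. Per length it was the lowest of the 10 in both populations, at 0.276 RPKM in basal and 0.983 RPKM in luminal cells. By CPM Fbln1 was lower in luminal cells, at 3.69 against 6.98. In luminal cells without marker cells, Tnc at 0.098 RPKM stood above Fbln1 (0.036), Thbs2 (0.0255), Col3a1 (0.0236) and Fn1 (0.023). At 50000 reads 3 basal cells (4.17%) and 6 luminal cells (7.89%) had Tnc, and without marker cells 1 of 65 and 4 of 67 did. The highest basal cell, cell 63 with 11 endothelial markers, had 76.2 CPM, and the highest luminal cell, cell 39 with 16 fibroblast markers, had 282 CPM and 64.3% of the luminal reads. The summed levels of 1.96 and 6.98 CPM gave a log2 ratio of 1.43, which was -1.75 on plate B alone and -0.032 without marker cells, so no direction is given for Tnc. A non-coding gene that overlaps it, 8030451A03Rik, had 2 reads in basal and 3 in luminal cells.

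Thbs2 (chromosome 17, 14665500 to 14694262) encodes thrombospondin 2, a relative of thrombospondin 1 that does not activate TGF-beta and limits blood vessel growth. It was detected in 2 of 72 basal cells (2.78%) and 9 of 76 luminal cells (11.8%, 5.56 to 21.3). The basal level of 53.5 CPM came from a single cell: basal cell 86 of plate B had 4404 reads, 3141 CPM and 97.8% of the total. This cell had 11 of 12 basal markers, 2 fibroblast and 0 endothelial markers. The log2 ratio was -1.42 with that cell and 3.22 without it. Of the 19.4 CPM in luminal cells, 94.0% lay in the cells with fibroblast markers, with 626 CPM in cell 33 as the highest. Without marker cells the luminal level was 0.151 CPM, with Thbs2 detected in 2 of 67 cells. The ratio was then -5.67, with all basal reads in basal cell 86. In basal cells of plate A only 1 read of Thbs2 was found.

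Over the 10 genes, 6 had a log2 ratio of at most -1 (Sparc, Thbs1, Postn, Fbln2, Fbln1 and Thbs2), where 18.3% of all genes did. The other 3 that passed a limit, Fn1, Tnc and Col3a1, had a ratio of at least 1, where 28.4% of all genes did. Without marker cells none of the 10 had a ratio of at least 1. Scaling by TMM factors moved the median over all genes by -0.15, from 0.18 to 0.033, and took Col3a1 to 0.81, so that 6 genes passed the lower and 2 the upper limit. For 6 genes in basal cells (Fn1, Tnc, Thbs2, Fbln1, Dcn and Col3a1) and for 9 in luminal cells (all but Thbs1), 3 cells held at least 50% of the reads, where 76.1% of all genes with reads did so in basal and 65% in luminal cells. Without marker cells the counts were 5 and 7. The cells needed to reach 50% of the basal reads numbered 15 for Sparc, 12 for Thbs1 and Fbln2, 6 for Postn, 2 for Dcn, Fbln1, Fn1 and Tnc, and 1 for Col3a1 and Thbs2.

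**Figure D4:**
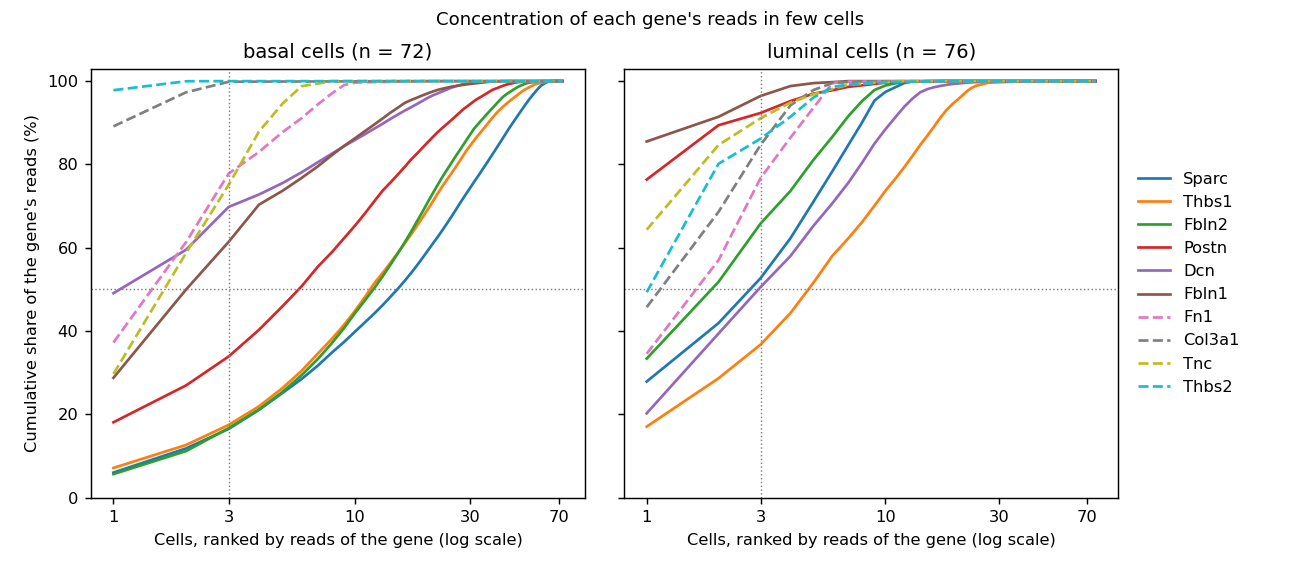
Cumulative share (%) of each gene's reads over cells ranked by their reads of that gene (log scale), in 72 basal and 76 luminal cells; dotted lines mark 3 cells and 50%. In basal cells Sparc, Thbs1 and Fbln2 reached 16.5 to 17.5% at 3 cells while Col3a1 and Thbs2 reached 99.8% or more, and in luminal cells Thbs1 rose most slowly.

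On the length-scaled level, the order in basal cells was Sparc (745 RPKM), Dcn (281), Postn (277), Thbs1 (266), Fbln2 (102), Col3a1 (22.0), Fbln1 (11.9), Thbs2 (9.04), Fn1 (5.79) and Tnc (0.276). Single cells moved this order. Without the cell that held most of its reads, Dcn stood at 145 RPKM, Col3a1 at 2.44 and Thbs2 at 0.20, whereas Sparc stood at 713 and Thbs1 at 251. In luminal cells the order was Dcn (447 RPKM), Sparc (68.0), Col3a1 (45.1), Thbs1 (33.8), Fn1 (30.8), Postn (8.77), Fbln2 (8.13), Thbs2 (3.27), Fbln1 (1.10) and Tnc (0.983). This order rested on the marker cells. Without them it was Dcn (196 RPKM), Thbs1 (37.5), Sparc (6.92), Fbln2 (1.96) and Postn (1.70), and the other 5 genes lay under 0.1, with Col3a1 at 0.0236 and Fn1 at 0.023. With 1 sample per population, neighbours such as Dcn, Postn and Thbs1 in basal cells are not separated by any measure of error between samples.

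**Figure D5:**
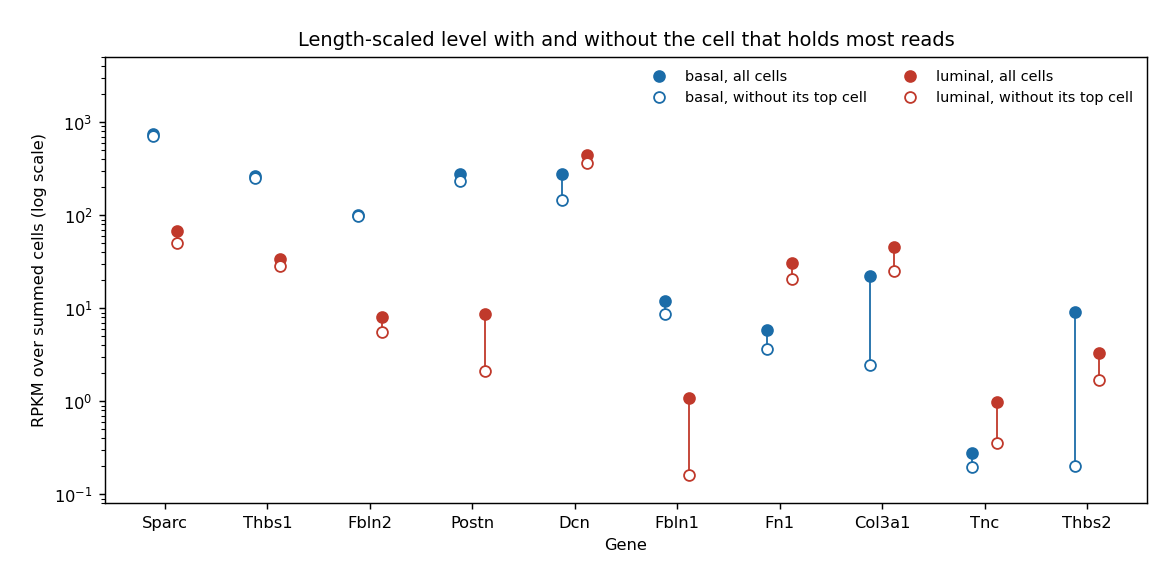
RPKM of each gene over the summed basal and luminal cells (log scale), with all cells (filled) and without the cell that holds most reads of that gene (open). The gap is widest for Thbs2 in basal cells, from 9.04 to 0.20 RPKM, and hardly visible for Sparc, Thbs1 and Fbln2 in basal cells.

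Correlations among the basal genes across cells were weak to moderate. Over 72 basal cells at 50000 reads, the Pearson correlation of log2(reads + 1) was 0.40 between Thbs1 and Postn and 0.38 between Fbln2 and Dcn. It was 0.34 between Fbln1 and Fbln2 and 0.30 between Sparc and Fbln2, and -0.27 between Postn and Fbln1. All 26 basal cells with Fbln1 also had Fbln2, and 44.8% of the cells with Fbln2 had Fbln1. Over all basal cells the shares were 80.6% for Fbln2 and 36.1% for Fbln1. These are descriptions over cells that share plates and depth.

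Other genes with the most similar pattern were sought over basal cells among 3312 genes with a read in at least 20 of them. For Fbln2 the nearest was Vcan, the proteoglycan versican (r = 0.59), followed by Hdlbp (0.58) and Dusp7 (0.56). Among those nearest to Sparc were Cnbp (0.52) and Apoe (0.46). For Thbs1 they were Dstn (0.43), an actin-severing protein, Postn (0.40) and Tagln (0.38), an actin-binding protein of contractile cells. Postn was nearest to App (0.47), Tmem176b (0.44) and Vim (0.43), Fbln1 to Lgals7 (0.60), Naa10 (0.52) and Tra2a (0.48), and Dcn to Tmem59 (0.56), Wif1 (0.45), a secreted Wnt inhibitor, and Tceal8 (0.45). Over 76 luminal cells and 4720 genes, the genes nearest to Thbs1 included Slc20a1 (0.55), a phosphate transporter, and Csn1s1 (0.51), a casein. Dcn was nearest there to Gstm1 (0.43), Ugdh (0.42) and Snx10 (0.38). Without marker cells none of these 3 was among the 3 nearest to luminal Dcn, which were H2bc4 (0.44), Plaat3 (0.41) and Ube2r2 (0.39), and Nedd9 (0.59) took the place of Csn1s1 for Thbs1. In basal cells without marker cells, the 3 nearest to Fbln2 were Dusp7 (0.61), Zfr (0.59) and Vcan (0.59), and Tmem59 (0.54) and Wif1 (0.53) were still the nearest to Dcn.

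Related matrix genes were counted by the same limits, which 18.3% (at most -1) and 28.4% (at least 1) of all genes passed. Of 27 other interstitial matrix genes tested, 13 had a log2 ratio of at most -1 and 9 of at least 1, with a median of -0.25 against 0.18 over all genes and -2.19 over the 10. Vcan, a large proteoglycan, stood at 857 and 17.7 CPM in summed basal and luminal cells and was detected in 66.7% of basal cells. Col14a1, a collagen that associates with fibrils and is also on the fibroblast marker list, stood at 208 and 60.0 CPM. Prelp, a leucine-rich proteoglycan, stood at 172 and 17.3 CPM. Efemp1, a fibulin, went the other way, at 0.0119 and 196 CPM, with 95.3% of its luminal reads in 3 cells.

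Of 17 other matricellular genes, 9 had a ratio of at most -1 and 6 of at least 1, with a median of -1.34. Fstl1, a secreted relative of Sparc, stood at 2613 CPM in basal cells (91.7% of cells) and 1034 CPM in luminal cells (14.5% of cells, 78.1% of the reads in 3 of them). Spon2, spondin 2, was basal too, at 274 and 7.72 CPM. Spp1, osteopontin, and Spon1, spondin 1, were higher in luminal cells, at 9.06 and 1859 CPM and at 92.8 and 274 CPM.

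Of 15 genes that process or crosslink matrix, 7 had a ratio of at most -1 and 5 of at least 1, with a median of 0.28. Tgm2, a crosslinking transglutaminase, stood at 57.0 and 199 CPM in basal and luminal cells. P4ha1 and P4ha2, subunits of collagen prolyl hydroxylase, went opposite ways, with ratios of -1.25 and 2.88, and Loxl1, an elastin crosslinker, had a ratio of 4.88 with 93.8% of its luminal reads in 3 cells. Of 21 receptors of these proteins, 5 had a ratio of at most -1 and 3 of at least 1 (6 and 2 with TMM factors), with a median of -0.48. Sdc4, a syndecan, was detected in 98.6% of basal and 98.7% of luminal cells. Itgb1, the integrin beta 1 chain and the CD29 of the sort, was detected in 93.1 and 78.9%, with a ratio of -1.65 in a gene that the gate used. Itgav, an integrin alpha chain, was detected in 72.2 and 72.4%. Cd36, a receptor of thrombospondin 1, stood at 461 and 293 CPM, but 3 cells held 89.1% of the basal and 92.3% of the luminal reads.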

How the data were processed

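The authors deposited raw counts per gene and cell, made from reads aligned to mm10 and assigned to genes with featureCounts and its RefSeq annotation, as the submitters' processing notes and the study's methods state. Strand handling is not given in the sources used here. A table of the whole series and 1904 identifiers without a RefSeq symbol (1.94% of counts) were not used. After 15 mitochondrial and 124 ribosomal protein genes had been set aside, the study's cell thresholds were applied (basal: 50000 reads, 1000 genes; luminal: 100000 reads, 1500 genes). No pair of cells looked like 1 library deposited more than once (smallest chi-square per gene 47.7). Doublets were not called.

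Reads were summed per population, and detection was read after thinning each cell to 50000 reads. All log2 ratios carry an added 1 CPM. With 1 sample per population there was no test. The members and all gene lists were chosen with earlier results of these data known. All 10 members were named, with up to the 4 genes of highest CPM in each related list and the 3 genes most correlated with each member detected in at least 20 cells, some of which are not reported here. Genes with close relatives may share reads. Python 3.11.15, numpy 2.4.6 and, for scaling alternatives, edgeR 4.0.16 were used. The ratio and detection steps were tested on simulated data.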

Additional observations from a re-analysis of the deposited data

Results flagged for a closer look

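Cells below the depth thresholds, which entered no comparison, carried reads of the 10 genes well above the limit that a count of 0 allows. In basal cells below the thresholds, 24 in number, the 10 genes summed to 4389 CPM (4141 to 4649), over 1167 reads and with at least 1 read in 24 of 24 cells, against 5475 CPM in basal cells that passed and a limit of 11.3 CPM. Of these reads, Fbln2 gave 665, and 95.6% of them lay in basal cell 38. Sparc was found in 22 of the 24 cells, Postn and Thbs1 in 21, and Fn1 and Tnc in none. In the 14 luminal cells below the thresholds the sum was 2569 CPM (2417 to 2729), over 1060 reads in 12 of 14 cells, against 1887 CPM in luminal cells that passed and a limit of 7.27 CPM. Dcn gave 943 of these reads, in 9 cells. Thbs1 gave 99, of which 89.9% lay in luminal cell 82. Intervals cover counting error only.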

How the results depend on the processing

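No paired analysis was possible because no result comes from a test and the labels' numbers merely count the cells of each population. Of 141 alternative values for the 9 counts and shares of the report, 113 were classed as the same and 28 as moved. Log2 ratios of single genes moved more often, with 44 values classed as the same, 96 as moved and 10 as reversed. For detection of single genes, 125 basal and 110 luminal values were classed as the same, and 15 and 30 as moved. At full depth 1 gene was in at most 10% of basal and 1 in at most 10% of luminal cells, and 91.7% of basal and 28.9% of luminal cells had at least 4 genes. With 5 reads required, 7 genes were in at most 10% of luminal cells and 66.7% of basal cells had at least 4. Plate B alone gave 7 genes in at most 10% of luminal cells, at least 4 genes in 54.5% of basal and 4.17% of luminal cells, and a log2 ratio of -1.75 for Tnc. Plate A against plate C gave 92.0% of basal cells and a ratio of 4.35 for Thbs2. Without cells that had at least 4 endothelial markers, 6 genes were in at most 10% of luminal cells. Without cells that had at least 4 fibroblast markers there were 7 such genes, 0 were higher in luminal cells, 5.80% of luminal cells had at least 4 genes, and the ratios were -4.12 for Fn1 and -3.10 for Col3a1. With 10 CPM added, 1 gene was higher in luminal cells, and without the top cell of each population Thbs2 stood at 2.33.

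Other limits gave 3 genes in over 75% of basal cells, 0 and 8 in at most 5% and 20% of luminal cells, and 2 basal and 3 luminal genes with at least 50% of their reads in 1 cell. At least 3 and at least 5 genes were found in 90.3% and 59.7% of basal cells. These follow from the limits themselves. The following settings were chosen after seeing the data. Without cells with at least 10 fibroblast or 7 endothelial markers, 8 genes were in at most 10% of luminal cells, 0 were higher in luminal cells, 2.99% of luminal cells had at least 4 genes, and the ratios were -4.77 for Fn1, -0.032 for Tnc and -2.01 for Col3a1. Without the cells with at least 10 fibroblast markers alone, the values were 7, 0, 7.14%, -4.06 for Fn1 and -2.65 for Col3a1. Beyond fewer cells and reads, the cause was not tested. Depth limits the rare genes most: at 50000 reads a transcript under about 20 CPM is expected to give less than 1 read.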
